A study of Homo sapiens with 33 samples.

Results

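The Eph receptors and ephrins described here are 10 genes, 7 receptors (EPHA1, EPHA2, EPHA4, EPHB2, EPHB3, EPHB4 and EPHB6) and 3 ligands (EFNA1, EFNB1 and EFNB2), taken by symbol from a count table of 56470 gene symbols. All 10 were found in the table, which holds bulk RNA-seq of poly(A) RNA from SCC1, SCC6 and SCC25, 3 established cell lines of head and neck squamous cell carcinoma (HNSCC). Each line was grown with 100 nM cetuximab (CTX), an antibody that blocks the epidermal growth factor receptor (EGFR), or with PBS as the untreated control, from the day after seeding, with daily changes of medium. There were 33 libraries, with PBS on days 0 to 5 in each line. CTX libraries were of days 1 to 5 in SCC1 and SCC25 and, by label, of days 2 to 5 in SCC6. The groups of days 1 to 5 held 5 libraries each. The labels of CTX-treated SCC6 give day 2 to 2 libraries, here 2a and 2b, and day 1 to none. The labels give DMEM with serum and hydrocortisone for SCC1 and SCC25 and high glucose DMEM with serum and non-essential amino acids for SCC6, whereas the study's methods name the same medium for all lines. As each line, treatment and day has at most 1 library, apart from day 2 of CTX-treated SCC6, the days of a group were used in place of replicates. Each SD therefore holds the change over days as well as the error, and p-values measure the spread between libraries of 1 culture series per line.

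Eph receptors are the largest family of receptor tyrosine kinases, and their ligands, the ephrins, are themselves held on the cell surface, so that signalling takes place where cells touch. A-type ephrins are anchored by a lipid and mostly bind EphA receptors, and B-type ephrins span the membrane and mostly bind EphB receptors. Binding sends a signal into both cells, and is known for control of repulsion, adhesion and boundaries between epithelial cells. In squamous epithelium EPHA2 and its preferred ligand EFNA1 are the most studied pair. EPHA2 can act without ligand downstream of growth factor signalling, and on binding EFNA1 it restrains the ERK pathway and is internalised.

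On GRCh37 the A-type pair lies on chromosome 1, EPHA2 at chr1:16450832-16482564 (minus strand) and EFNA1 at chr1:155100352-155107375 (plus strand). EPHA1 lies at chr7:143087382-143105949 and EPHA4 at chr2:222282747-222438922, both on the minus strand. Of the B-type receptors, EPHB2 lies at chr1:23037332-23247993, EPHB3 at chr3:184279573-184300196 and EPHB6 at chr7:142552823-142568847 on the plus strand, and EPHB4 at chr7:100400187-100425145 on the minus strand. The B-type ligands lie at chrX:68048864-68062003 (EFNB1, plus strand) and chr13:107142093-107188010 (EFNB2, minus strand). Each count covers all transcripts of a gene, so isoforms were not told apart.

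The promoter sequences of EPHA2, EFNA1 and EFNB2 are shown because these 3 genes were on the same side of PBS on all days with CTX in every line. They are the 250 bases before the RefSeq start site on GRCh38.p14, printed 5′ to 3′ on the strand of the gene, at chr1:16156070-16156319 (minus strand), chr1:155127626-155127875 (plus strand) and chr13:106535663-106535912 (minus strand), in that order. Capitals mark TGANTCA (AP-1), TGACGTCA (CRE), CCGGAAGT (ETS) and GGGCGG (GC box) on either strand.
EPHA2: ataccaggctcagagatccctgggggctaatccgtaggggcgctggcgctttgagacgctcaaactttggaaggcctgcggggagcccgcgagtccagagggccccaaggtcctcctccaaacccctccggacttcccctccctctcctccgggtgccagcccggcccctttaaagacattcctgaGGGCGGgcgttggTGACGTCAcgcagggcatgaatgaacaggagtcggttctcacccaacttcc
EFNA1: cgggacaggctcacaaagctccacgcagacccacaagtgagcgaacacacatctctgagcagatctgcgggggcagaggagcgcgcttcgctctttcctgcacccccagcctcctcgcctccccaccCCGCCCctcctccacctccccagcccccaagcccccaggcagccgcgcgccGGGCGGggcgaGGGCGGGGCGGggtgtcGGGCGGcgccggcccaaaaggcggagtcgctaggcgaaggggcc
EFNB2: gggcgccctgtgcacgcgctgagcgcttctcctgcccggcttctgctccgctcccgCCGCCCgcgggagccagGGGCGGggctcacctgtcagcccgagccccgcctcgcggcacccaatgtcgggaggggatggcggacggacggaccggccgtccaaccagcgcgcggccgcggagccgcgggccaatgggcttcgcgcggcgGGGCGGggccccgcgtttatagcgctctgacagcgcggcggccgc
The EPHA2 window holds TGACGTCA from 51 to 44 bases before the start, and it was the only one of the 10 members with this motif, which 1.65% of 35116 RefSeq promoters of this length hold. The EFNA1 window holds 5 copies of GGGCGG, the pair at 61 to 51 bases before the start overlapping by 1 base. All 10 members hold at least 1 GC box, against 42.6% of all promoters, and none holds CCGGAAGT, against 3.42%. CATTCC, the TEAD motif, was found in the EPHA2 window alone, against 11.9% of promoters. GCCNNNGGC (AP-2), not in capitals here, was found in EPHA1, EPHA4, EPHB2, EPHB4 and EFNB2, against 19.8% of promoters. EPHA4 and EPHB2 have 2 windows each and were counted if either held a motif, whereas the shares count single windows. For EPHA4 the AP-2 motif was in 1 of its 2 windows. These matches describe letters in a window and were not tested as sites.

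Total estimated counts ran from 28508758 to 80727478 per library, the highest in SCC6 with CTX on days 4 and 5. Library names give 5 flow cells, which partly follow line and treatment. In SCC1, PBS of days 1 to 4 ran on 1 flow cell and PBS of day 5 with all CTX libraries on another. In SCC6, CTX of days 4 and 5 ran alone on 1 flow cell, and in SCC25, CTX of days 3 to 5 ran apart from the rest. In the SCC6 libraries of days 4 and 5, the median log2 change with CTX was -0.34 over 5819 genes under 45% GC and 0.62 over 4671 genes over 55% GC, whereas over days 1 to 3 it was 0.0092 and -0.15. Of the 10 members 7 are over 55% GC and EPHA4 alone is under 45%, so several SCC6 changes are given below also with the GC trend of each library removed. All 8 squamous epithelial markers (KRT5, TP63 and others) were detected in each line, and summed to 1334 to 2603 CPM (counts scaled to a common library size, by TMM) with PBS and 1814 to 2657 with CTX in SCC6. In SCC1 they summed to 1449 to 2749 and 6553 to 11420 CPM, and in SCC25 to 11850 to 18040 and 14530 to 17740 CPM. Fibroblast markers (8 genes, none at 0 in every library of a group) summed to 51.3 to 72.8 CPM with PBS and 96.2 to 221 with CTX in SCC1, 3.41 to 5.27 and 10.0 to 116 in SCC6, and 177 to 227 and 291 to 458 in SCC25. The 6 endothelial markers summed to at most 18.6 CPM in any library. Leukocyte markers (6 genes) summed to 18.7 to 53.5 CPM with PBS and 8.36 to 16.7 with CTX in SCC1, 16.6 to 19.0 and 4.01 to 7.25 in SCC6, and 166 to 233 and 146 to 176 in SCC25. CD3E was at 0 throughout SCC25 and LYZ throughout SCC1 with CTX. The part of these markers in the changes below was not tested.

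With PBS, EPHA2 had the highest level of the 10 genes per kilobase of transcript in each line. It reached 85.8 ± 22.3 CPM per kb in SCC1, 63.7 in SCC6 and 55.1 ± 7.90 in SCC25 (mean ± SD, n = 5). The next was EFNA1 in SCC1 (24.9 ± 2.55 CPM per kb), EFNB2 in SCC6 (23.2) and EFNB1 in SCC25 (46.7 ± 3.46). With CTX the order changed in SCC1, where EFNA1 stood first at 38.4 ± 4.75 CPM per kb and EPHA2 second at 26.3 ± 7.25. EPHA2 stayed first in SCC6 (46.0 ± 12.2) and in SCC25 (35.5), followed by EFNA1 (32.1) and EFNB1 (30.5). Over the 10 genes the summed level had a median of 666 CPM with PBS (range 497 to 770) and 372 CPM with CTX (307 to 393) in SCC1, without overlap. Most of this fall was that of EPHA2, from a mean of 338 to 104 CPM, while EFNA1 and EPHB3 rose. In SCC25 the sum was 748 CPM (730 to 841) and 615 CPM (478 to 665), again without overlap, and in SCC6 533 and 546 CPM with overlapping ranges of 497 to 699 and 426 to 703.

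**Figure D1:**
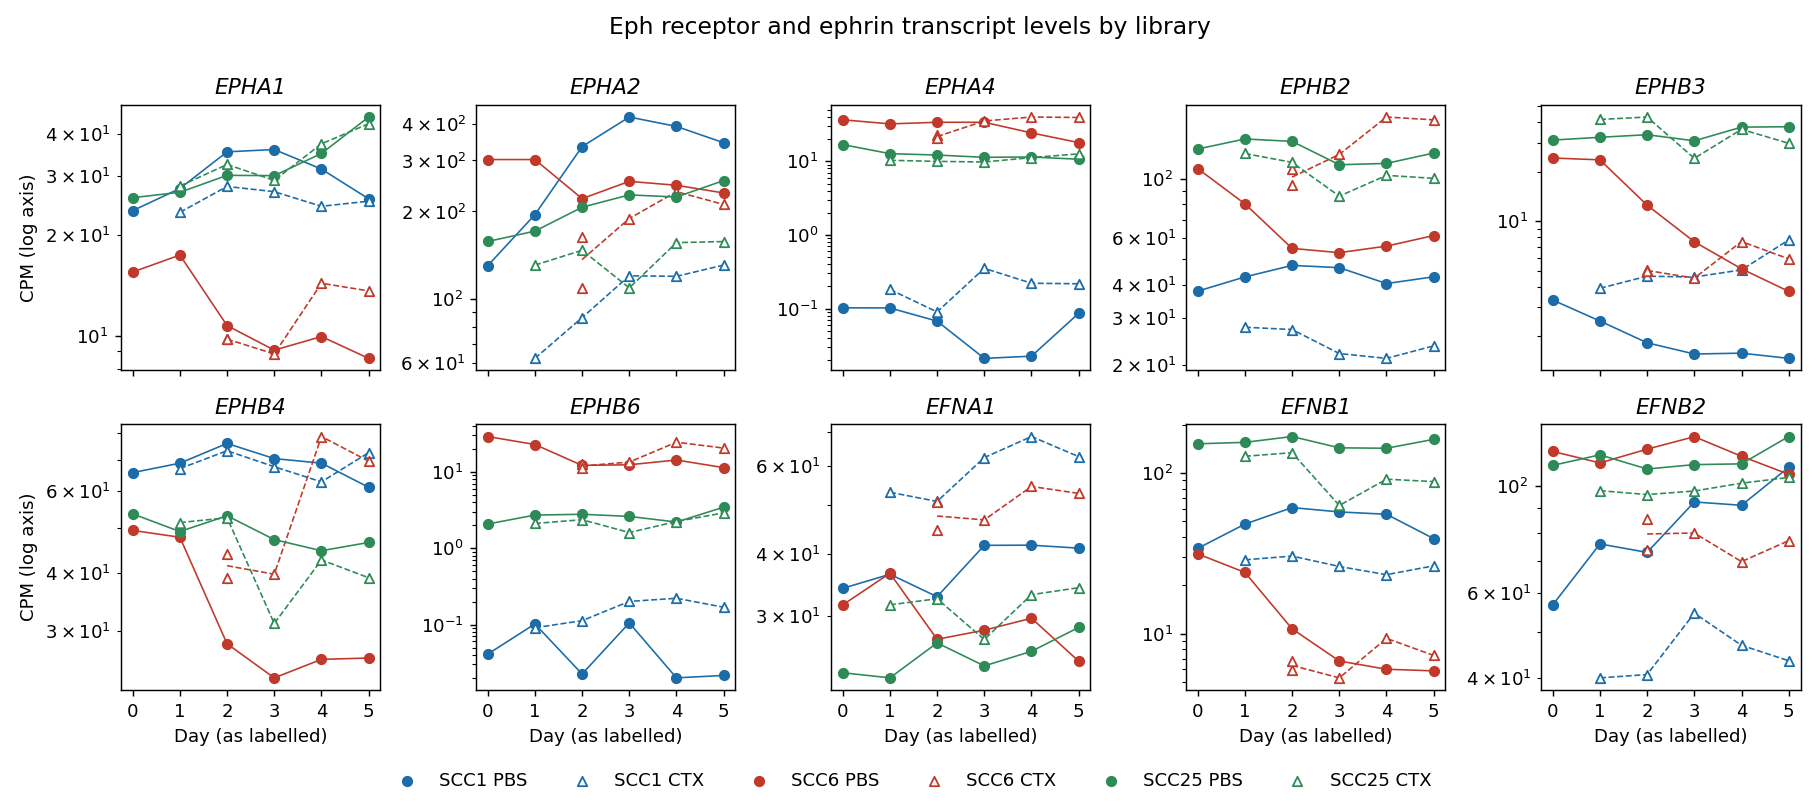
Level of each gene (CPM, log axis) by day of treatment in SCC1, SCC6 and SCC25, with PBS as filled circles and solid lines and CTX as open triangles and dashed lines. Values under 0.02 CPM are drawn at 0.02, and the line for SCC6 with CTX passes through the mean of both libraries of day 2. EFNA1 lies above and EPHA2 and EFNB2 lie below the PBS library of the same day in all 5 CTX libraries of each line.

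The 3 lines differed in which members they expressed. Line and flow cell overlap in the PBS libraries of days 1 to 5. All of SCC25 ran on 1 flow cell, SCC1 days 1 to 4 on another and SCC6 days 2 to 5 on a further one. SCC1 day 5 and SCC6 day 1 shared a flow cell. The labels also give SCC6 another medium, and the part of flow cell or medium in these differences was not tested. By edgeR's quasi-likelihood test on the 15 PBS libraries, 10 of 10 members differed between SCC6 and SCC1, 9 between SCC25 and SCC1 and 7 between SCC6 and SCC25, where 68.9%, 68.3% and 72.0% of all genes did, so that these shares say little about the family. EPHA4, a receptor that binds both ephrin classes, was at 10.7 to 12.7 CPM in SCC25 and 18.0 to 34.0 in SCC6 on days 1 to 5. In SCC1 it had 1 to 4 counts per library, or at most 0.102 CPM. EPHB6, whose kinase domain is inactive, was likewise at 0 to 5 counts in SCC1, at 2.20 to 3.45 CPM in SCC25 and at 11.4 to 22.9 CPM in SCC6. EPHB3, an epithelial EphB receptor, was lowest in SCC1 (1.46 to 2.47 CPM) and highest in SCC25 (30.8 to 37.5 CPM), a log2 difference of 4.28 ± 0.42 (SE, adjusted p = 2.8e-07). EFNB1 was highest in SCC25 (143 to 169 CPM) and lowest in SCC6 (5.87 to 24.1 CPM), with SCC1 between (39.0 to 60.9 CPM), and no ranges met. EPHB2 followed another order, with SCC25 (113 to 141 CPM) above SCC6 (52.7 to 80.4) and SCC6 above SCC1 (40.4 to 47.2). EFNA1 was highest in SCC1, by 0.40 ± 0.11 log2 units over SCC6 and 0.60 over SCC25, and SCC6 and SCC25 did not differ beyond their spread. EPHA2 was higher in SCC1 than in SCC25 by 0.63 ± 0.16. Its difference from SCC6 (0.42 lower in SCC6, adjusted p = 0.032) was lost with day as a block and without the filter on low counts, and held in 8 of 15 fits that left out 1 library.

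Cetuximab changed 7 of the 8 members tested in SCC1, 2 upward and 5 downward, where 44.5% of all genes were called at an adjusted p under 0.05, 22.5% higher and 22.0% lower. EPHA4 and EPHB6 did not pass the filter on low counts there. In SCC6 4 of 10 were called, 3 higher and 1 lower, against 30.1% of genes (15.5% higher and 14.5% lower). In SCC25 4 of 10 were called, 1 higher and 3 lower, against 18.2% (8.72% higher and 9.47% lower). The median log2 change over the members tested was -0.56 in SCC1, 0.07 in SCC6 and -0.18 in SCC25, and over all genes 0.02, 0.0039 and 0.0062. EFNA1 rose and EFNB2 fell in all 3 lines, and no other member was called in every line as counted. With the GC trend of each library removed, EPHA2 and EFNB1 were also called lower in each line. Groups of libraries did not overlap for 6 members in SCC1 (EPHA2, EPHB2, EPHB3, EFNA1, EFNB1, EFNB2), for 3 in SCC6 (EPHB2, EFNA1, EFNB2) and for 3 in SCC25 (EPHA2, EFNB1, EFNB2), where 31.2%, 18.7% and 14.7% of all genes did not.

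**Figure D2:**
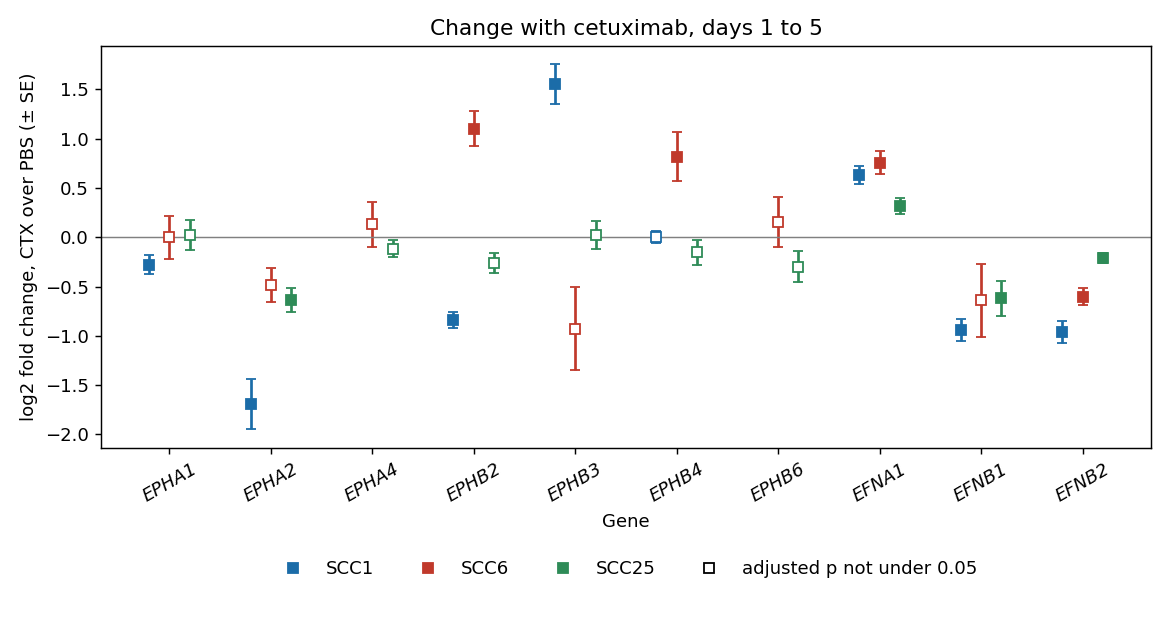
Log2 change with CTX over PBS (days 1 to 5, n = 5 libraries each) of each gene in SCC1, SCC6 and SCC25, with the standard error as bars. Filled symbols passed an adjusted p of 0.05 by edgeR and open symbols did not, and EPHA4 and EPHB6 have no value in SCC1. EFNA1 lies above 0 and EFNB2 below 0 in each line, whereas EPHB2 lies at 1.10 in SCC6 and at -0.84 in SCC1.

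EPHA2, the receptor with the highest level, fell most in SCC1. There it was at 195, 335, 424, 393 and 345 CPM on days 1 to 5 with PBS and at 62.3, 86.1, 120, 120 and 131 CPM with CTX. The highest CTX library thus lay below the lowest PBS library, and the log2 change was -1.69 ± 0.25 (adjusted p = 0.00051). In SCC25 EPHA2 was at 171, 207, 228, 224 and 256 CPM with PBS and at 131, 147, 109, 156 and 158 CPM with CTX, again without overlap, with a change of -0.64 ± 0.12 (adjusted p = 0.0041). With flow cell as a covariate the change in SCC25 was -0.64 with an adjusted p of 0.050. Within the flow cell that held both treatments, CTX of days 1 and 2 against PBS of days 1 to 5, it was -0.65 with 0.030. Against PBS of the same day these 2 CTX libraries were at -0.39 and -0.49. In SCC6 the PBS libraries were at 302, 222, 254, 246 and 232 CPM, and CTX 2a and 2b at 164 and 109, day 3 at 189, day 4 at 234 and day 5 at 212 CPM. The days 4 and 5 values overlapped PBS and the change of -0.49 ± 0.17 did not pass (adjusted p = 0.052). It passed with DESeq2 (adjusted p = 0.030), within the flow cell of days 2 to 5 of PBS and 2a, 2b and 3 of CTX (-0.63, 0.015), with the GC trend removed (-0.75, 0.00017), and without CTX 2b (-0.35, 0.048) or CTX day 4 (-0.59, 0.028), and not without both libraries of day 2 (-0.27, 0.12). Bulk RNA cannot tell fewer cells that express a gene from less RNA of that gene per cell.

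EFNA1, the ligand of EPHA2, moved the other way in each line. In SCC1 it was at 36.4, 32.8, 41.6, 41.6 and 41.0 CPM on days 1 to 5 with PBS and at 53.1, 50.9, 62.3, 68.7 and 62.6 CPM with CTX. All CTX libraries were above all PBS libraries, with a log2 change of 0.63 ± 0.09 (adjusted p = 9.9e-05). In SCC6 PBS gave 36.5, 26.9, 28.1, 29.7 and 24.3 CPM, and CTX gave 50.7 (2a), 44.5 (2b), 46.7, 54.6 and 52.8 CPM. Here too the groups stood apart, with a change of 0.76 ± 0.12 (adjusted p = 0.00071). In SCC25 the levels were 22.5, 26.5, 23.8, 25.5 and 28.4 CPM with PBS and 31.6, 32.5, 26.9, 33.1 and 34.2 CPM with CTX. Only the CTX library of day 3 lay within the PBS range, and the change was 0.32 ± 0.08 (adjusted p = 0.021). That call was lost without CTX day 4 (adjusted p = 0.056) and with flow cell as a covariate (0.34, adjusted p = 0.075).

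The other EphA receptors changed less. EPHA1, an epithelial receptor, was at 25.6 to 35.9 CPM with PBS and 23.3 to 27.9 CPM with CTX in SCC1, a change of -0.28 ± 0.09 (adjusted p = 0.028). That value was -0.0062 within the flow cell that held both treatments and 0.0051 with flow cell as a covariate. The flow cell with both treatments held 1 PBS library of SCC1, that of day 5, the lowest of PBS days 1 to 5. The call was also lost with day 0 added and without PBS day 2, PBS day 3, CTX day 1 or CTX day 4 (adjusted p up to 0.073). In SCC6 and SCC25 the changes of EPHA1 were -0.0012 (adjusted p = 0.997) and 0.02 (0.946). EPHA4 was at 32.3, 34.0, 34.0, 24.4 and 18.0 CPM with PBS in SCC6 and at 22.7, 20.8, 35.4, 40.1 and 39.5 CPM with CTX. The 2 CTX libraries of day 2 were thus among the lowest and those of days 4 and 5 the highest, and over all days the change was 0.13 ± 0.23 (adjusted p = 0.698). In SCC1 EPHA4 had 13 counts over the 5 PBS libraries and 44 over the 5 CTX libraries, too few for the test.

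EFNB2, a ligand of EPHB4 and also of EPHA4, fell in each line. SCC1 with PBS gave 76.0, 73.0, 92.8, 91.3 and 110 CPM, and with CTX 40.1, 40.7, 54.6, 46.8 and 43.5 CPM. The change was -0.96 ± 0.11 (adjusted p = 3.4e-05). In SCC6 PBS libraries lay between 106 and 127 CPM and CTX libraries between 69.8 and 85.7 CPM, with a change of -0.60 ± 0.09 (adjusted p = 0.00043). In SCC25 the gap was small, with PBS at 109 to 127 CPM and CTX at 96.1 to 104 CPM. Its change of -0.21 ± 0.05 passed (adjusted p = 0.017), but not without PBS day 1 or CTX day 2 (0.054 and 0.053) or with flow cell as a covariate (-0.24, 0.062). EFNB1, the ligand of EphB receptors encoded on the X chromosome, was at 48.1, 60.9, 57.2, 55.3 and 39.0 CPM with PBS in SCC1 and at 28.8, 30.4, 26.2, 23.3 and 26.4 CPM with CTX. No libraries overlapped and the change was -0.94 ± 0.11 (adjusted p = 3.0e-05). Within the flow cell that held both treatments it was -0.53. That flow cell held 1 PBS library of SCC1, that of day 5, the lowest of PBS days 1 to 5. In SCC25 EFNB1 was at 155, 169, 143, 143 and 162 CPM with PBS and at 127, 134, 62.8, 91.5 and 88.4 CPM with CTX, a change of -0.62 ± 0.18 (adjusted p = 0.033). The 3 lowest libraries were those of days 3 to 5, which ran on another flow cell, and with flow cell as a covariate the change was -0.24 (adjusted p = 0.284). The call was lost as well without any 1 PBS library or CTX day 4 or 5 (adjusted p up to 0.079). In SCC6 EFNB1 fell with PBS from 24.1 CPM on day 1 to 5.87 on day 5 and was at 5.31 to 9.35 CPM with CTX, with a change of -0.64 ± 0.37 (adjusted p = 0.217). Without PBS day 1 the change of EFNB1 was -0.099 (adjusted p = 0.751), and with the GC trend removed it passed at -0.80 (adjusted p = 0.027).

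EphB receptors went in different directions in the lines. EPHB2, a receptor for EFNB1 and EFNB2, rose in SCC6 from 80.4, 54.7, 52.7, 55.8 and 61.1 CPM to 108 (2a), 94.2 (2b), 123, 170 and 166 CPM, without overlap (1.10 ± 0.18, adjusted p = 0.00095). With the GC trend removed the change was 0.93. In SCC1 EPHB2 fell from 42.8, 47.2, 46.3, 40.4 and 42.8 CPM to 27.7, 27.1, 22.1, 21.2 and 23.6 CPM (-0.84 ± 0.08, adjusted p = 5.0e-06). In SCC25 it was at 113 to 141 CPM with PBS and 85.9 to 124 with CTX, and the change of -0.26 ± 0.10 did not pass (adjusted p = 0.089). It passed with day as a block (-0.26, 0.0042), with the GC trend removed (-0.24, 0.021) and without CTX day 1 (-0.31, 0.037), and was -0.073 with flow cell as a covariate. EPHB3 rose in SCC1 from 2.47, 1.82, 1.56, 1.57 and 1.46 CPM to 3.91, 4.63, 4.57, 5.05 and 7.69 CPM. All CTX libraries were above all PBS libraries, and the change was 1.55 ± 0.20 (adjusted p = 4.5e-05). In SCC6 EPHB3 went from 23.6 CPM on day 1 to 3.74 on day 5 with PBS and was at 4.50 to 7.51 CPM with CTX, so that it lay below PBS of the day on days 2 and 3 and above it on days 4 and 5. The change over all days was -0.93 ± 0.42 (adjusted p = 0.117). It was -0.39 without PBS day 1 (0.344), -1.14 without PBS day 5 (0.041), -0.34 with day as a block (0.426) and -1.11 with the GC trend removed (0.013). EPHB4, the receptor of EFNB2, changed in SCC6 alone by this test, from 47.8, 28.2, 23.8, 26.1 and 26.3 CPM to 43.9, 39.2, 39.8, 78.8 and 69.7 CPM (0.82 ± 0.25, adjusted p = 0.027). PBS day 1 lay among the CTX libraries. That call was lost with day 0 added, without the filter on low counts (adjusted p = 0.10) and without PBS day 2, 3, 4 or 5 or CTX day 4 or 5 (up to 0.080), and with the GC trend removed the change was 0.51 (adjusted p = 0.00046). In SCC1 EPHB4 stayed at 61.3 to 76.1 CPM with PBS and 62.9 to 73.4 with CTX (0.0012 ± 0.06, adjusted p = 0.991). EPHB6 did not pass in SCC6 (0.16 ± 0.25) or SCC25 (-0.30 ± 0.16).

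To ask whether the lines responded differently, the line-by-treatment terms were tested over the 30 libraries of days 1 to 5. The change differed between lines for 7 of 10 members by the joint test, where 26.0% of genes did. EPHB2 differed most clearly (joint adjusted p = 3.3e-08), being 1.97 ± 0.19 log2 units more positive in SCC6 than in SCC1 and 1.37 ± 0.19 more than in SCC25. EPHB3 was 2.45 ± 0.46 more negative in SCC6 than in SCC1 (adjusted p = 0.00025). The change of EPHA2 was 1.24 ± 0.28 higher in SCC6 (adjusted p = 0.0019) and 1.07 higher in SCC25 (0.013) than in SCC1, where it was most negative, although its joint call was lost with flow cell as a covariate (adjusted p = 0.146). EFNB2 fell less in SCC25 than in SCC1 by 0.77 ± 0.13 (adjusted p = 0.00012). The change of EPHB4 was higher in SCC6 than in SCC25 by 0.98 ± 0.25 (adjusted p = 0.0069) and than in SCC1 by 0.84, the latter not without SCC6 CTX day 4 (0.058) or day 5. With the GC trend removed these differences of EPHB4 were 0.58 and 0.55, and both passed. EFNA1 rose more in SCC6 than in SCC25 by 0.46 ± 0.14 (adjusted p = 0.025), or by 0.29 with the GC trend removed, which did not pass (0.057). Its joint call (0.043) was lost in 16 of 30 fits that left out 1 library, with flow cell as a covariate (0.112) and with the GC trend removed (0.069). The joint call of EPHA4 (0.021) rests on the few counts in SCC1 and was lost with line and day together as a block (0.104). With that block EPHA1 (0.020), EPHB6 (0.010) and EFNB1 (0.050) were called. The joint call of EPHB6 was also made with the GC trend removed (0.0065), where its change was 1.71 more negative in SCC6 than in SCC1 (0.0036) on few SCC1 counts. Over the 3 pairs of lines, 6 members differed between SCC6 and SCC1 (19.2% of genes), 5 between SCC25 and SCC1 (8.5%) and 4 between SCC6 and SCC25 (17.5%).

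The ratio of EFNA1 to EPHA2 within a library does not depend on how libraries are scaled. In log2 of estimated counts, not per length, it was -3.09 ± 0.39 in SCC1, -3.11 ± 0.10 in SCC6 and -3.09 ± 0.14 in SCC25 with PBS (SD, n = 5), and -0.76 ± 0.32, -1.82 ± 0.33 and -2.14 ± 0.10 with CTX. The means over PBS days 1 to 5 thus lay near the same value for the 3 lines, and the ratio rose 5.03-fold, 2.45-fold and 1.94-fold. Single PBS libraries were less alike, as SCC1 went from -2.42 on day 1 to -3.35 on day 2. Day 0, which these means leave out, set the lines apart. Its EFNA1 and EPHA2 counts were 1667 against 6361 (SCC1), 1122 against 10746 (SCC6) and 1156 against 7896 (SCC25). Every CTX library was above every PBS library of its line, and the two-sided exact permutation test gave p = 0.0079 in each line, the smallest that 5 against 5 libraries allow (adjusted over 6 ratio tests, p = 0.0095). In SCC1 the highest single value with CTX was -0.23 on day 1 and the highest with PBS -2.42, also on day 1. The ratio of EFNB2 to EPHB4 fell by 0.96 log2 units in SCC1 and by 1.40 in SCC6 (p = 0.0079 each, exact permutation test, adjusted p = 0.0095), with every CTX library below every PBS library. In SCC25 it was 1.25 ± 0.15 with PBS and 1.22 ± 0.33 with CTX (p = 0.865, exact permutation test). In SCC1 the fall came with EFNB2 lower and EPHB4 at its former level, and in SCC6 with EFNB2 lower and EPHB4 higher. The ratios were not corrected for GC, which is 54.6% for EFNA1, 60.3% for EPHA2, 50.0% for EFNB2 and 62.6% for EPHB4. With the GC trend removed, EFNB2 changed by -0.67 in SCC6 and EPHB4 by 0.51, against -0.60 and 0.82 as counted. EFNA1 then changed by 0.63 and EPHA2 by -0.75, against 0.76 and -0.49.

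**Figure D3:**
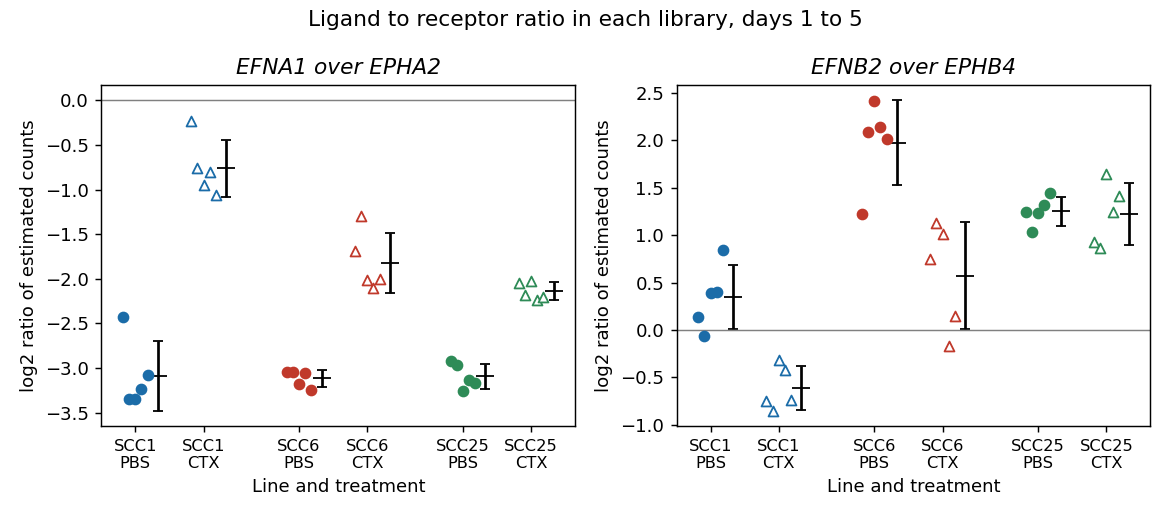
Log2 ratio of estimated counts of EFNA1 over EPHA2 and of EFNB2 over EPHB4 in each library of days 1 to 5, by line and treatment, with the mean and SD in black. The ratios are not corrected for the GC trend of the libraries. The EFNA1 to EPHA2 ratio is higher with CTX in every line, by 2.33 in SCC1, 1.29 in SCC6 and 0.95 in SCC25, and the EFNB2 to EPHB4 ratio is lower in SCC1 and SCC6.

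Members were also tested within 2 periods, days 1 to 3 and the last 2 days. In SCC1 7 of 8 were called in the first period, where 29.5% of genes were, and 6 in the second, where 29.8% were. The ratio of EPHB3 to its PBS library of the day went from 0.64 log2 units on day 1 to 2.32 on day 5, and that of EPHA2 stayed between -1.96 and -1.40. The change of EPHB3 was 0.92 ± 0.33 higher in the second period but was not called (adjusted p = 0.672), and no SCC1 member was called between periods by edgeR (1 with an unadjusted p under 0.05) or DESeq2. In SCC25 EPHA2 alone was called in the first period (-0.64 ± 0.12, 7.85% of genes called) and not without PBS day 2 (adjusted p = 0.056). By edgeR no member was called in its second period (2.77% of genes), where 4 had an unadjusted p under 0.05 and DESeq2 called 1. With day as a block 3 were called in the first period (2294 of 20740 genes), EPHA2, EPHB2 (-0.27) and EFNA1 (0.33). The CTX library of day 3 was the lowest of the SCC25 CTX libraries for EPHA2, EPHA4, EPHB2, EPHB3, EPHB4, EPHB6, EFNA1 and EFNB1, and without it 4 members were called in the first period and 3 in the second. Over all SCC25 fits that left out 1 library, 538 to 3485 genes were called in the first period and 36 to 3287 in the second.

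In SCC6 6 members were called on days 1 to 3 (20.3% of genes) and 5 on days 4 and 5 (37.5%). On days 1 to 3 EFNA1 (0.59) and EPHB2 (0.75) rose and EPHA2 (-0.79 ± 0.19), EPHB3 (-1.64 ± 0.36), EFNB1 (-1.26 ± 0.39) and EFNB2 (-0.61) fell. This set PBS of days 1, 2 and 3 against CTX 2a, 2b and 3, so PBS day 1 had no CTX library of its day. Against PBS of the same day, log2 ratios were 0.72 to 0.91 for EFNA1 and 0.78 to 1.22 for EPHB2. They were -1.02 to -0.43 for EPHA2, -1.31 to -0.72 for EPHB3, -0.84 to -0.34 for EFNB1 and -0.70 to -0.48 for EFNB2. The call of EFNB1 held in 2 of 10 fits that left out 1 library, and without PBS day 1 its change was -0.56 (adjusted p = 0.062). That of EFNA1 was lost without PBS day 2 (0.50, adjusted p = 0.054). On days 4 and 5 EFNA1 (0.98), EPHB2 (1.52), EPHB4 (1.5 ± 0.28) and EPHA4 (0.90 ± 0.23) rose and EFNB2 (-0.60) fell, while EPHA2 was at -0.11 ± 0.23. EPHA4 was not called without PBS day 5 (0.71, adjusted p = 0.096). By edgeR no member differed between the periods, with 8 at an unadjusted p under 0.05. DESeq2 called 6 (2838 of 19150 genes). With day as a block 7 were called (2651 of 20337 genes), among them EPHB3 (1.69), EPHA4 (1.27) and EPHB4 (0.87). On days 4 and 5 the block gave 9 (9858 of 20337 genes). With the GC trend of each library removed, 9 members were called on days 1 to 3, with EPHA1 (-0.35, adjusted p = 0.048), EPHB4 (0.38, 0.0068) and EPHB6 (-0.27, 0.045) added, and 6 on days 4 and 5, with EPHA2 added. Of 15587 genes in these fits, 6205 were called on days 1 to 3 and 7249 on days 4 and 5. EPHA2 was then at -0.75 ± 0.14 on days 1 to 3 and -0.81 ± 0.17 on days 4 and 5, and EPHB4 at 0.38 and 0.64. EPHB6 went from 0.80 to 0.0038, EPHA1 from 0.58 to -0.05 and EPHB3 from 0.59 to -0.24 on days 4 and 5. EPHA4 (0.99), EPHB2 (1.10), EFNA1 (0.66) and EFNB2 (-0.69) kept their side. No member then differed between periods at an adjusted p under 0.05 (EPHA4 1.47 ± 0.29, 0.063), and with the day block added EPHA4 alone did (0.041). The part of the flow cell in this trend was not tested, since the libraries of CTX days 4 and 5 ran on a flow cell of their own.

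**Figure D4:**
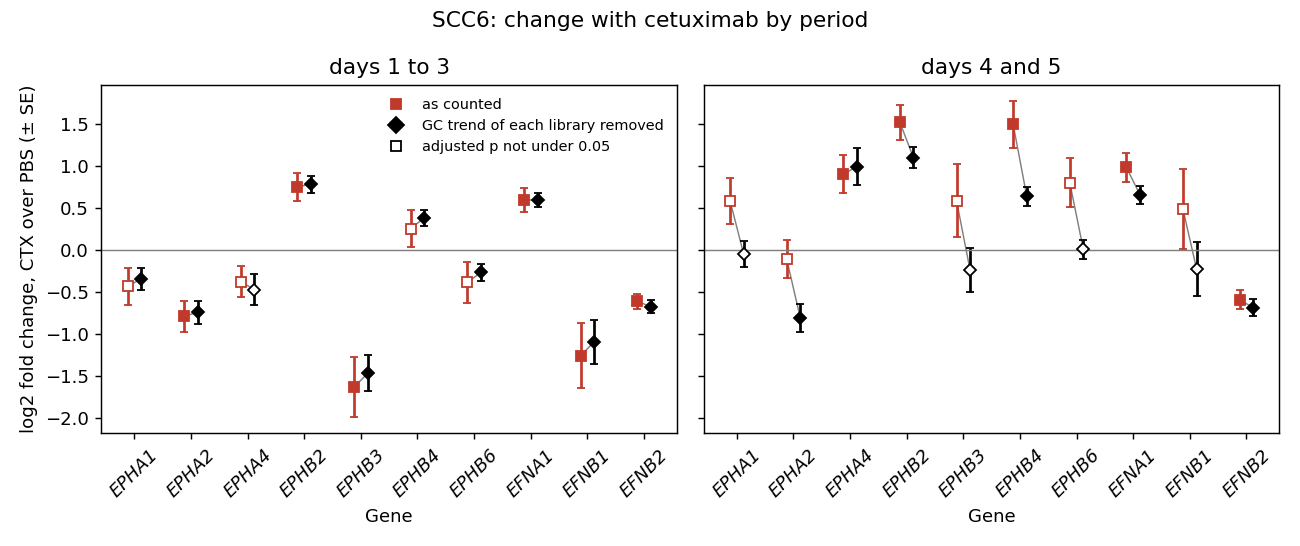
Log2 change with CTX in SCC6 on days 1 to 3 and on days 4 and 5 for each gene, as counted (red squares) and with the GC trend of each library removed (black diamonds), with the standard error as bars. On days 4 and 5 the values of the GC-rich genes shift downward when the trend is removed, EPHB4 from 1.5 to 0.64 and EPHA2 from -0.11 to -0.81, whereas EPHA4 and EFNB2 stay near their values.

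Because ephrins act between touching cells, the PBS libraries of days 0 to 5 were also tested for a trend over days in culture. In SCC6 7 of 10 members fell with PBS, where 32.5% of genes were called in either direction and 3310 of 17757 genes fell. The steepest were EPHB3, at 24.2 CPM on day 0 and 3.74 on day 5 (-0.61 ± 0.05 log2 units per day, adjusted p = 0.00016), and EFNB1, at 31.4 and 5.87 CPM (-0.56 ± 0.07, adjusted p = 0.0014). EPHA1, EPHA4, EPHB2, EPHB4 and EPHB6 fell by 0.18 to 0.27 log2 units per day. Without PBS day 0, 3 members were called. PBS of days 0 and 1 ran on another flow cell than PBS of days 2 to 5 in SCC6. Day and flow cell thus overlap there, and the part of the flow cell was not tested. In these libraries genes over 55% GC had a median slope of -0.15 per day, and with the GC trend removed EPHB3 (-0.43), EFNB1 (-0.41), EPHA4 (-0.24) and EPHB6 (-0.10) fell. In SCC25 EPHA2 (0.14 ± 0.02 per day) and EPHA1 (0.15 ± 0.02) rose and EPHA4 (-0.11 ± 0.03) fell, where 11.0% of genes were called, and EPHA4 was not called without PBS day 0. In SCC1 EFNB2 alone was called (0.16 ± 0.03 per day, 2.68% of genes), and not without PBS day 0, 1 or 4. PBS of day 5 ran on another flow cell than the earlier PBS libraries of SCC1. EPHA2 in SCC1 went from 130 CPM on day 0 to 345 on day 5 with PBS, with its peak of 424 on day 3, and the CTX library of day 1 (62.3 CPM) was below the PBS library of day 0.

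The other 12 Eph and ephrin genes of the table were mostly low. Of those tested, 4 of 6 rose in SCC1, 4 of 8 in SCC6 and 1 of 5 in SCC25, and none fell, where 22.5%, 15.5% and 8.72% of all genes rose. A low gene could pass the filter on low counts through the libraries of a single treatment. EFNA2 in SCC6 did so, at 2 to 19 counts per library with PBS and 19 to 238 with CTX. These numbers of risen genes are thus partly set by the filter. EFNA5, a further A-type ligand, rose in each line, from a mean of 7.31 to 17.6 CPM in SCC1 (1.28 ± 0.16), from 13.6 to 26.1 in SCC6 (0.93 ± 0.13) and from 12.6 to 16.0 in SCC25 (0.34 ± 0.07), and its groups overlapped in none. EFNA4 rose in SCC1 (0.33) and SCC6 (1.03), and EFNA3 (0.52) and the receptor EPHA3 (1.54, on 7 to 58 counts per library) rose in SCC1. In SCC6 EFNA2 (2.63 ± 0.62) and EFNB3 (2.28 ± 0.54) rose from low levels, EFNB3 from 0.155 to 0.562 CPM with PBS to 3.40 and 3.73 CPM with CTX on days 4 and 5. With the GC trend removed they rose by 2.25 and 1.97.

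Among 47 Eph signalling partners (adaptors, phosphatases, proteases, guanine nucleotide exchange factors and GTPases), 8 rose and 15 fell of 45 tested in SCC1, 7 and 8 of 46 in SCC6, and 4 and 5 of 46 in SCC25. Over all genes SCC1 had 22.5% higher and 22.0% lower, SCC6 had 15.5% higher and 14.5% lower and SCC25 had 8.72% higher and 9.47% lower, and the partners lay near these shares in SCC6 and SCC25. The same shares are the background of the counts that follow. GRB7, an adaptor that binds EphB receptors, fell in each line (-0.57, -0.84 and -0.57), and VAV3, an exchange factor recruited to EphA receptors, rose in each (3.58 ± 0.27, 1.52 ± 0.32 and 0.36 ± 0.07). Genes driven by ERK signalling (DUSP6, SPRY4, EGR1 and others) fell for 10, 11 and 10 of 12 in SCC1, SCC6 and SCC25, with medians of -2.02, -1.76 and -1.07. Keratinocyte differentiation genes rose and fell for 3 and 0 of 7 in SCC1, 1 and 4 of 10 in SCC6 and 1 and 2 of 11 in SCC25, and cell adhesion genes for 5 and 5 of 15, 1 and 3 of 13, and 3 and 0 of 15.

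Over the 30 libraries of days 1 to 5, with levels centred within each line, the genes most like EPHA2 among 8876 expressed genes were TRIB1 (Pearson r = 0.941), BCAR3 (0.932), SDHA (0.929), VEGFA (0.926) and EHD4 (0.916). EFNA1 was most like LIMK2 (0.955) and HEXA (0.940), and EFNB2 most like CD68 (0.938) and SOX9 (0.937). EPHB4 was most like BOK (0.964) and ARID1A (0.960). Between members, r was 0.828 for EPHA2 with EFNB2, -0.515 for EPHA2 with EFNA1, 0.771 for EPHB4 with EPHB2 and -0.381 for EPHB4 with EFNB2. The libraries share line, treatment, flow cell and GC trend, so these values describe the libraries and carry no test.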

How the data were processed

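The authors estimated transcript abundance with Salmon (0.8.2 in the submitters' processing notes, which list GRCh37) and imported it with tximport. The deposited values are estimated counts per gene symbol, not scaled between libraries. The annotation is not given in the sources used here. The 10 genes and all gene lists were chosen with earlier results of these data known, and all 10 are named in every comparison. Counts were rounded to whole numbers, and filtered (filterByExpr), scaled (TMM) and tested across all genes in edgeR 4.0.16 (quasi-likelihood F test, two-sided, R 4.3.3), with Benjamini-Hochberg adjustment over all genes and a threshold of 0.05. Day 0 entered only the trend over days with PBS and 1 alternative. Log2 ratios of single libraries used CPM with a pseudocount of 0.1. CPM per kb used the GENCODE canonical transcript length on GRCh37, which is not the authors' annotation.

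PBS and CTX libraries of a line share their labelled day, which pairs them. Their deviations correlated across genes by 0.122 to 0.403 in SCC1, 0.228 to 0.595 in SCC25, and 0.591, 0.534, 0.571, -0.193 and -0.000213 for CTX days 3, 2a, 2b, 4 and 5 in SCC6. Alternatives were DESeq2 1.42.0, its size factors, no filter, day as a block, day 0 added, flow cell, 1 library left out and, chosen after seeing the data, removal of each library's trend over gene GC content (natural spline, 5 df, genes with a GC value only). Scripts were tested on simulated counts. EPHA1 and EPHB4 overlap ZYX and SLC12A9 on the opposite strand. The kit keeps strand, but whether counting used it is not stated.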

Additional observations from a re-analysis of the deposited data

Results flagged for a closer look

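In SCC6 with PBS the library of day 1 was far above the other 4 for 4 members, EPHA1 at 17.4 CPM, EPHB4 at 47.8 CPM, EPHB6 at 22.9 CPM and EFNB1 at 24.0 CPM. Of 57 groups of libraries checked for such a gap 4 had one, all 4 through this library. The libraries of a group are a series of days and the 4 gaps share a library, so their number cannot be set against a chance rate. This library and PBS of day 0 ran on another flow cell than PBS of days 2 to 5.

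For 7 members the change with cetuximab differed between lines by edgeR's line-by-treatment terms over 30 libraries. The largest of the 3 pairwise differences that passed was 1.24 log2 units for EPHA2 (SCC6 minus SCC1, adjusted p = 0.0019), 1.97 for EPHB2 (SCC6 minus SCC1, 1.6e-08), -2.45 for EPHB3 (SCC6 minus SCC1, 0.00025), 0.984 for EPHB4 (SCC6 minus SCC25, 0.0069), 0.455 for EFNA1 (SCC6 minus SCC25, 0.025), 0.765 for EFNB2 (SCC25 minus SCC1, 0.00012) and -1.9 for EPHA4 (SCC25 minus SCC1, 0.017). In SCC1 EPHA4 had at most 14 counts per library, and without PBS day 3, PBS day 4 or CTX day 3 of SCC1 its difference was -1.68, -1.71 or -1.66 with adjusted p of 0.051 to 0.056.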

How the results depend on the processing

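Flow cell as a covariate lowered the number of members called from 4 to 0 in SCC25 (4 with an unadjusted p under 0.05), and for the difference of change between lines from 7 to 4 jointly, from 5 to 2 for SCC25 minus SCC1 and from 4 to 2 for SCC6 minus SCC25. It turned EPHA1 in SCC1 to 0.0051. Without the filter on low counts 3 members were called for SCC25 minus SCC1. With the GC trend removed 7 members were called in SCC6 (7081 of 14678 genes), and 7 with the day block added (8370 of 16126 genes). In that last fit 8 were called for SCC25 minus SCC1 (4207 of 18261 genes). By period, SCC6 on days 4 and 5 gave 9 with the day block, and its difference between periods 6 with DESeq2, 8 with no filter, 7 with the block and 1 with block and GC removal. SCC25 on days 1 to 3 gave 2 with DESeq2, 3 with the block, 6 with GC removal and 9 with both, and on days 4 and 5 it gave 1, 0, 4 and 5. The trend with PBS gave 3 with DESeq2, 2 with no filter and 2 with GC removal in SCC1 and 5 with GC removal in SCC25, and GC removal turned EPHA2 in SCC6 to 0.057 per day (adjusted p = 0.049). These causes were not tested.

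Leaving out 1 library gave 6 to 7 members called in SCC1, 3 to 5 in SCC6 and 2 to 5 in SCC25 (2 without PBS day 1 or CTX day 4), and for the difference of change 5 to 9 jointly, 4 to 7 for SCC6 minus SCC1, 2 to 6 for SCC25 minus SCC1 (2 without SCC1 PBS day 4) and 2 to 5 for SCC6 minus SCC25 (2 without SCC25 CTX day 3, SCC6 PBS day 2 or SCC6 CTX day 4). For the PBS levels it gave 9 to 10, 9 to 9 and 7 to 8. By period it gave 6 to 7 and 5 to 6 in SCC1, 5 to 6 and 4 to 7 in SCC6 (0 to 4 between periods, 4 without PBS day 1), and 0 to 4 and 0 to 3 in SCC25, with 0 to 0 between periods in SCC1 and SCC25. For the PBS trend it gave 0 to 3, 3 to 9 and 2 to 3. The EFNA1 to EPHA2 ratio kept a change of 2.20 to 2.50, 1.16 to 1.36 and 0.912 to 0.996 in SCC1, SCC6 and SCC25, and EFNB2 to EPHB4 of -1.06 to -0.834, -1.59 to -1.22 and -0.137 to 0.0579.

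With day as a replicate block, sign flips over days cannot give a p under 0.0625 with 5 days or 0.125 with the 4 days of SCC6, and the ratios changed by 2.33, 1.23 and 0.954 (EFNA1 over EPHA2) and -0.957, -1.68 and -0.0305 (EFNB2 over EPHB4). Beyond the calls given here and in the text, the block left 7, 4 and 5 members called in SCC1, SCC6 and SCC25.

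Over all genes, flow cell as a covariate called 4058 in place of 8005 genes in SCC1 and 1358 in place of 3474 in SCC25 (2078 within 1 flow cell). For the difference of change it called 2951 in place of 5563 jointly and 2243 in place of 4103 (SCC6 minus SCC1). It called 847 in place of 1820 for SCC25 minus SCC1 and 1676 in place of 3740 for SCC6 minus SCC25. The block called 8250 in place of 5226 in SCC6, and 8726, 6449, 2834 and 6984 for the differences in the same order. GC removal called 5758 in SCC25 (7546 with the block) and 2814 for SCC25 minus SCC1, and with the block 8370 in SCC6 and 8832, 6729, 4207 and 6177 for the differences. By period, SCC6 on days 1 to 3 had 3894, and 5893 with the block, 6205 with GC removal and 6349 with both. On days 4 and 5 SCC6 had 7180, and 9858 with the block, 7249 with GC removal and 8077 with both. Its difference between periods had 0, against 2838 with DESeq2, 3366 with no filter, 2651 with the block, 12 with GC removal and 146 with both. SCC25 had 1628 on days 1 to 3, and 2314 with DESeq2, 2294 with the block, 5054 with GC removal and 6393 with both. On days 4 and 5 SCC25 had 574, and 1175 with DESeq2, 910 with the block, 3346 with GC removal and 4912 with both. The difference between periods was 0 in SCC1 and SCC25, against 31 and 3 with DESeq2, 24 and 0 with no filter, and 0 and 11 with GC removal and block. The PBS trend in SCC1 had 511, and 1485 with DESeq2, 890 with no filter and 1028 with GC removal.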
